A study of Homo sapiens with 2 samples.

Results

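The integrin and laminin genes described here are the 35 genes named by 95 probe sets of the array, out of 19775 genes and 54675 probe sets in all. They were chosen by symbol, as the integrin alpha genes ITGA, the integrin beta genes ITGB1 to ITGB8 and the laminin chain genes LAMA, LAMB and LAMC, wherever the platform annotation gave a probe set exactly 1 gene. They are 18 alpha subunit genes, 7 beta subunit genes and 10 laminin chain genes. A probe set is a group of probes designed against the same transcript, and for a gene with several of them the main probe set is the brightest over both arrays.

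Total RNA came from FaDu, a human line of squamous carcinoma cells from the pharynx, which had received either the GLUT4 sequence or the control vector by lentivirus and had been kept under puromycin for 2 weeks. Both cell populations therefore share the infection and the selection. The promoter that drives GLUT4, and whether a population grew from 1 cell, are not given in the sources used here. Each population gave 1 array, an Affymetrix Human Genome U133 Plus array, and the comparison asks which transcripts differ when GLUT4, a glucose transporter, is overexpressed in cells described as having low metastatic potential. A single array stood for each group, so no difference could be set against replicates or tested. All differences below are log2 intensities of the GLUT4 array minus those of the vector array, and they cover every way in which the populations differed. SLC2A4, which encodes GLUT4, read 28.3 with the vector and 32.6 with GLUT4, both below 39.3, the median of all probe sets. It is not known here whether the introduced sequence holds the stretch that this probe set detects, so the value does not check the labels.

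How far probe sets of one gene disagree gives a technical scale for these differences. From 10523 genes that have more than 1 probe set, the difference of a lone probe set had an SD of 0.20 on the log2 scale, the probe set SD below. Variation between cultures is outside it. So is any error of the RNA preparation or hybridization that the probe sets of a gene share, because they were read on the same arrays.

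Integrins are surface receptors made of 1 alpha and 1 beta subunit, and the pairing sets which matrix protein is bound. Laminins are trimers of an alpha, a beta and a gamma chain that form the sheet of the basement membrane under epithelia. Keratinocytes and squamous carcinoma cells hold on to laminin mainly through ITGA3 with ITGB1 and ITGA6 with ITGB4, to collagen through ITGA2 with ITGB1, and to fibronectin, vitronectin and latent TGF-beta through ITGAV with several beta subunits. ITGB2 and its alpha partners are receptors of white blood cells.

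The collagen receptor gene ITGA2, the ITGAV partner gene ITGB5 and the collagen receptor gene ITGA1 were more than 1.5-fold lower with GLUT4 on their main probe sets, and no integrin or laminin gene was more than 1.5-fold higher. Among all 19775 genes 1.54% were more than 1.5-fold lower and 1.84% more than 1.5-fold higher, against 3 and 0 of the 35 genes here. With the average over its probe sets standing for each gene, 1 of the 35 was more than 1.5-fold lower, ITGA2. Among all genes averaged in this way, 0.94% were more than 1.5-fold lower and 1.36% higher. Of the 95 probe sets, 5 were more than 1.5-fold lower and 0 were higher, beside 1.22% lower and 2.04% higher among all probe sets. Above the median signal lay 29 of the genes, with 3 lower and 0 higher beside 1.99% and 2.38% of all genes of such signal, and 50 of the probe sets, with 5 lower and 0 higher beside 1.82% and 2.88%. That signal is the mean over both arrays. An ITGB2 probe set among these 5 was above 39.3 only with the vector (68.9 to 28.5). Most of the family differed by less than 1.5-fold. The median difference was -0.13 over the 35 genes and -0.02 over all genes, and 26 of the 35 lay below 0 against 52.2% of all genes. A difference larger than the probe set SD was found downwards in 14 of the 35 genes and upwards in 0, beside 18.0% and 14.7% of all genes. Several of these genes share a receptor or a laminin trimer, so they are not independent items, and these shares are descriptions of the same pair of arrays.

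**Figure D1:**
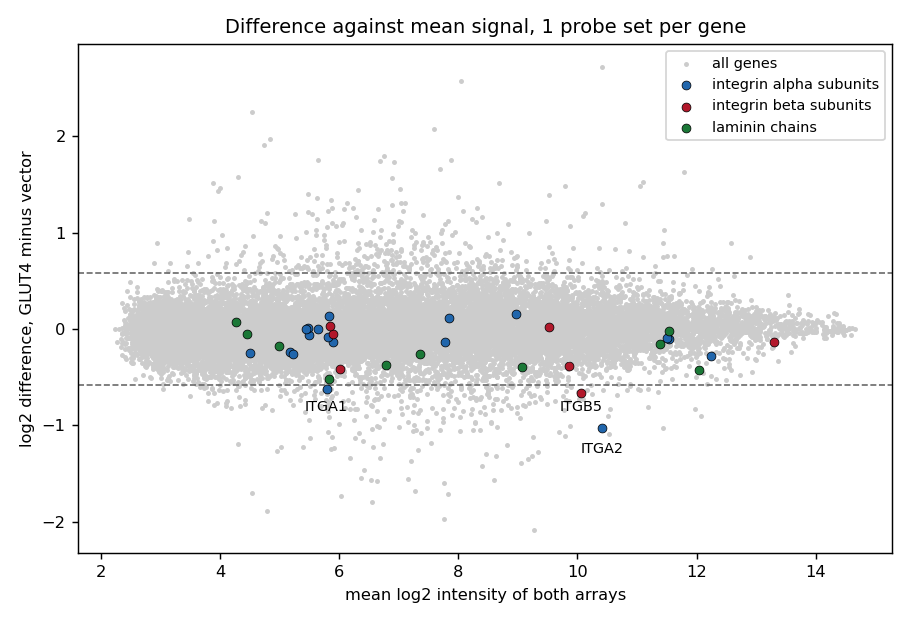
Each point is 1 gene by its main probe set, with the log2 difference (GLUT4 minus vector) on the vertical axis and the gene's mean log2 signal over the arrays on the horizontal axis, and dashed lines mark 1.5-fold. Grey points are all 19775 genes, blue points the 18 integrin alpha genes, red points the 7 integrin beta genes and green points the 10 laminin genes; ITGA2, ITGB5 and ITGA1 are the coloured points beyond the lower line.

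ITGA2 encodes the alpha subunit of the main collagen receptor of epithelial cells. Its main probe set read 1942 with the vector and 952 with GLUT4, 2.04-fold lower (log2 difference -1.03). Its other probe set read 861 and 536, a log2 difference of -0.68. Both were thus past 1.5-fold in the same direction, and the gene stood at place 56 of 19775 counted from the most lowered. In RNA from a whole culture, fewer cells that express a gene and less RNA per cell cannot be told apart.

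ITGA1, which also makes a collagen receptor with ITGB1, read 68.5 with the vector and 44.6 with GLUT4 on its main probe set, 1.53-fold lower (log2 difference -0.62). This lies just past the threshold and close to the median signal. Its other probe sets were dim, at 12.2 and 10.2 for one and 7.21 and 6.74 for the other, with differences of -0.26 and -0.10. An offset of 32 on all intensities, under which dim probe sets differ less, left ITGA1 at -0.39, and averaging its 3 probe sets left it at -0.32, both within 1.5-fold. The other collagen-binding alpha genes, ITGA10 and ITGA11, whose products serve mainly cartilage and fibroblasts, differed by -0.07 (46.1 to 44.0) and -0.08 (57.8 to 54.5) on their main probe sets. Further ITGA11 probe sets were at -0.33 (47.0 to 37.3) and, where dim, at 0.08. ITGB1, the beta subunit that all 4 of these alpha subunits pair with, read 10597 with the vector and 9647 with GLUT4 (-0.14). Its next brightest probe sets read 4463 and 3804, and 2985 and 2549.9, both at -0.23, and 4 dim ones lay between -0.15 and 0.29.

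ITGA1 and ITGA2 lie next to each other on chromosome 5, with only PELO between their starts in the order of protein-coding genes of GRCh38.p14. They are the pair of neighbours among these genes that were both past 1.5-fold. The neighbours ITGAM, ITGAX and ITGAD stood at -0.26, 0.00 and 0.00, and the neighbours LAMB1 and LAMB4 at -0.02 and 0.07. Because ITGA1 and ITGA2 were both lower, the 250 bases before each start are shown, on the plus strand of GRCh38.p14 as given by RefSeq, at chr5:52787666-52787915 for ITGA1 and chr5:52989102-52989351 for ITGA2. Capitals mark the GC box, GGGCGG or its reverse complement CCGCCC, the motif of the Sp1 factor family.
ITGA1: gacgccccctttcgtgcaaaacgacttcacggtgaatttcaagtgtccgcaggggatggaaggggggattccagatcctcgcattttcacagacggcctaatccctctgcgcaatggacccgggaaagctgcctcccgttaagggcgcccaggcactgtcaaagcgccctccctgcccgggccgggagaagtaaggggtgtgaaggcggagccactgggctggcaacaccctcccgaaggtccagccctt
ITGA2: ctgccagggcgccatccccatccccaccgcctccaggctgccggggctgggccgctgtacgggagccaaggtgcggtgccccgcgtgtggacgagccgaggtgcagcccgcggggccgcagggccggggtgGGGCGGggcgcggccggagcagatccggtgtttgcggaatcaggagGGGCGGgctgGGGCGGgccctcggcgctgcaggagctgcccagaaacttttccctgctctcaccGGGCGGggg
The ITGA2 window holds 4 GC boxes, beginning 119, 73, 63 and 9 bases before the start, and 76.4% of its bases are G or C. The ITGA1 window holds 0 GC boxes at 62% G or C. Of all 35116 windows of this length, 42.6% hold a GC box on either strand. The AP-1 motif TGANTCA, whose reverse complement has the same letters, is in neither window and in 6.57% of all windows. An entry was found for 19 of the 35 genes, of which 9 hold a GC box and 0 an AP-1 motif. A match is a description of these letters and not of binding, and the absence of a match says only that the letters are not in this window.

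**Figure D2:**
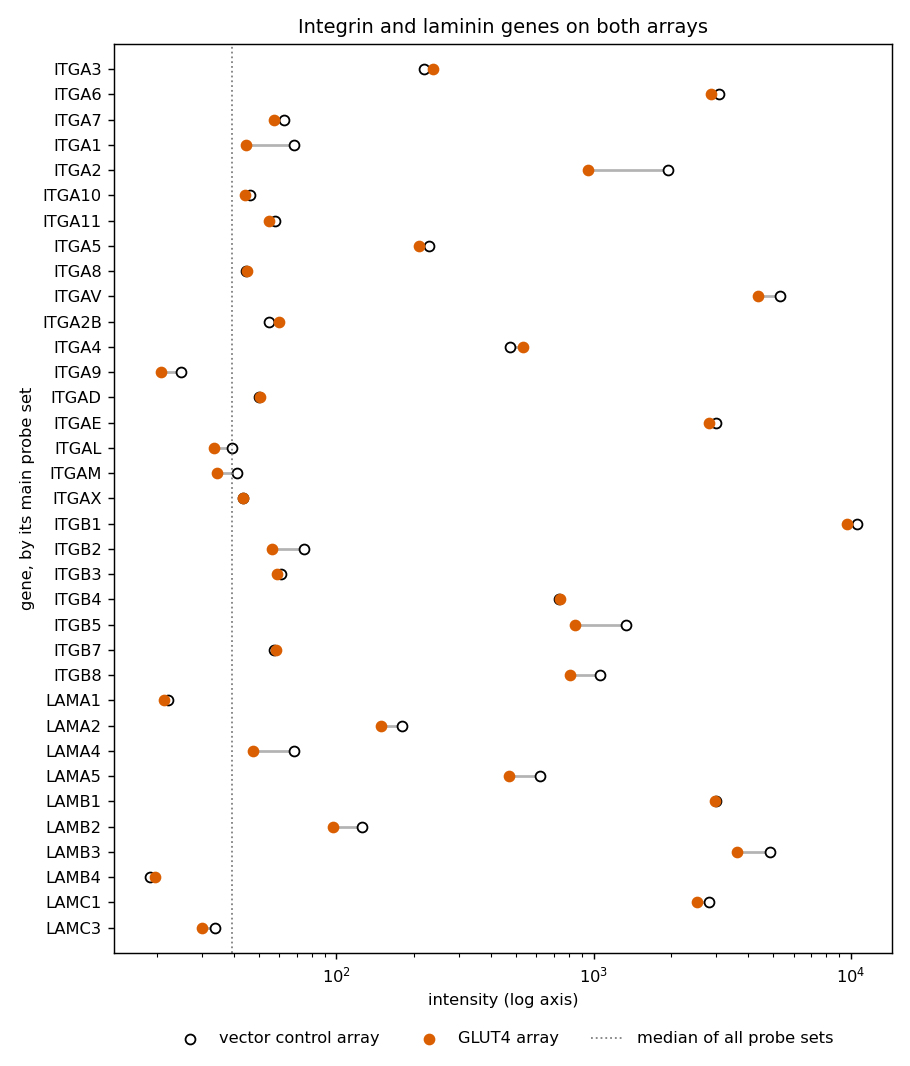
For each gene the open circle is the intensity of the main probe set on the vector control array and the orange point that on the GLUT4 array, on a log axis, with 1 array each and therefore no error bar. The dotted line is the median of all probe sets, 39.3. Lines are longest for ITGA2, ITGB5 and ITGA1, and signals are to be compared within a gene and not between genes, since probes differ in brightness.

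Around ITGAV, the alpha subunit of the vitronectin and latent TGF-beta receptors, the beta subunit genes differed to different degrees. ITGAV itself has 1 probe set, which read 5331 with the vector and 4378 with GLUT4 (-0.28). ITGB5, which makes a vitronectin receptor with it, read 1341 and 849 on its main probe set, 1.58-fold lower (-0.66). Its other 3 probe sets read 132 and 102, 122 and 82.4, and 59.5 and 42.4, with differences of -0.37, -0.57 and -0.49. All 4 ITGB5 probe sets were therefore lower, and only the brightest was past 1.5-fold. ITGB5 was within 1.5-fold when probe sets with the suffix s_at or x_at were left out (-0.57) and when its probe sets were averaged (-0.52).

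ITGB8, which with ITGAV activates latent TGF-beta, read 1058 with the vector and 813 with GLUT4 on its main probe set (-0.38). Its 4 further probe sets were all below the median signal, at 28.9 or less on both arrays. Of these, 3 were higher with GLUT4 by 0.30, 0.32 and 0.47 and 1 was lower (-0.22), so that the mean over all 5 was 0.10, of opposite sign to the main probe set. ITGB3, the beta subunit of platelets and endothelium, differed by -0.05 on its main probe set (60.7 to 58.6), and its 7 probe sets lay between -0.15 and 0.04.

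ITGB6, the epithelial ITGAV partner, is not among the 35 genes, because its 4 probe sets are annotated both to ITGB6 and to the noncoding RNA gene LINC02478 and cannot be assigned to either. These probe sets read 1670 and 694, 107 and 45.4, 74.3 and 53.0, and 18.7 and 19.3, each with the vector control first. The former pair was 2.41-fold and 2.37-fold lower with GLUT4, the next 1.40-fold lower, and the dimmest 1.03-fold higher. They enter no count given here.

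**Figure D3:**
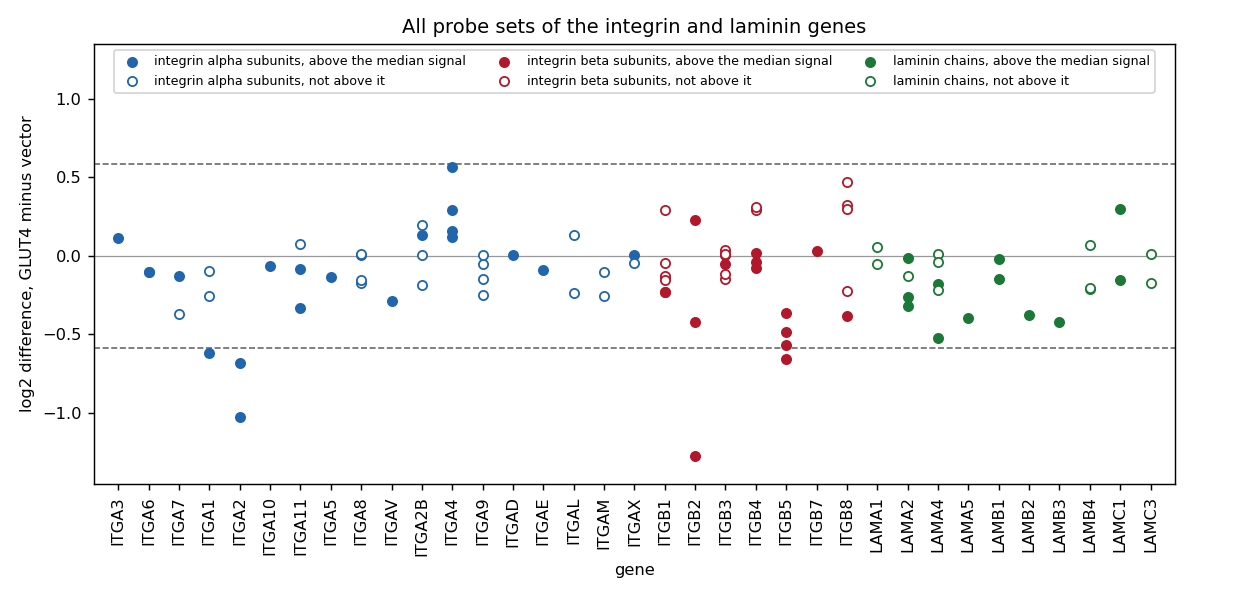
Each point is 1 of the 95 probe sets, placed by its gene, with the log2 difference (GLUT4 minus vector) running upwards, and 1.5-fold is dashed. Filled points have a mean signal above the median of all probe sets and open points do not; blue is integrin alpha, red integrin beta and green laminin. The 5 points below the lower line are 2 of ITGA2 and 1 each of ITGA1, ITGB2 and ITGB5, and no point lies above the upper line.

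ITGA6, ITGB4, ITGA3 and ITGA7, subunits of laminin receptors, were at similar levels on both arrays by their main probe sets. ITGA6, the alpha subunit of hemidesmosomes, read 3086 with the vector and 2870.3 with GLUT4 (-0.10), and its other probe set differed by -0.10 as well (680.3 to 634). ITGB4, its partner in hemidesmosomes, read 732 and 740.1 (0.02). The 4 further ITGB4 probe sets, none brighter than 64.2, ranged from -0.08 to 0.31. ITGA3, the alpha subunit of the other laminin receptor of keratinocytes, read 220.0 and 238 (0.11). ITGA7, the laminin receptor subunit of muscle, read 62.4 and 57.0 (-0.13), and 16.9 and 13.1 on a dim further probe set (-0.37). None of these genes differed by more than the probe set SD on its main probe set.

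Of the fibronectin receptor subunits, ITGA5 read 229 with the vector and 209 with GLUT4 (-0.13). ITGA4, which binds fibronectin and VCAM1 and is best known from white blood cells, was the integrin or laminin gene with the highest difference on its main probe set, at 0.16 (474 to 530.0). All 4 of its probe sets were higher with GLUT4, the others reading 376 and 410.0 (0.12), 110 and 134 (0.29), and 90.8 and 135 (0.57). The last lies just inside 1.5-fold, which is 0.58 on this scale. ITGA8 differed by 0.01 (44.7 to 44.8) and the platelet subunit ITGA2B by 0.14 (54.6 to 59.9). ITGA9 stayed below the median signal at 24.8 and 20.9 (-0.25).

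The ITGB2 probe sets disagreed. ITGB2 is the beta subunit shared by the white blood cell receptors, and it has 3 probe sets here, all close to the median signal. The main one read 74.96 with the vector and 56.0 with GLUT4 (-0.42), the next 51.2 and 60.0 (0.23), and the third 68.9 and 28.5, 2.42-fold lower (-1.27). The last difference is the largest of the 95 probe sets and stood at place 46 of 54675 from the most lowered. The 0.23 belongs to a probe set marked by the manufacturer's suffix x as open to cross-hybridization, and the -1.27 to one with the suffix s. An alternative below leaves out both kinds, and the main probe set at -0.42 then remains. Of the alpha partners, ITGAL read 39.4 and 33.4 (-0.24), ITGAM 40.9 and 34.3 (-0.26), ITGAX 43.3 and 43.4 (0.00) and ITGAD 50.1 and 50.3 (0.00), none of them far from the median signal. ITGAE, which binds E-cadherin together with ITGB7, read 3003 and 2818 (-0.09), and ITGB7 read 57.2 and 58.4 (0.03).

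Of 11 white blood cell marker genes measured, 1 was more than 1.5-fold lower with GLUT4, CD14 (251 to 143), and 0 were higher. Their summed intensity was 706 with the vector and 562 with GLUT4, and CD14 made up most of that gap. Beside 12939 of all 19775 genes, 6 of the 11 had a mean signal above the median of all probe sets. These were CD14, CORO1A (116 to 105), CD79A (72.7 to 56.0), LAPTM5 (72.3 to 61.6), CD3D (59.2 to 57.2) and CSF1R (46.6 to 49.1). The pan-leukocyte marker PTPRC was at 8.30 and 8.14, LYZ and TYROBP were at 15.7 or less on both arrays, and CD3E and MS4A1 were at 33.7 or less. The part of such cells in the ITGB2 values was not tested.

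The laminin chain genes were mostly lower with GLUT4 by amounts within 1.5-fold. Of 10 measured, 9 lay below 0 on the main probe set, the median was -0.22, and 0 passed 1.5-fold in either direction. The 7 whose signal was above the median of all probe sets all lay below 0, with a median of -0.38, whereas 50.2% of all genes above that signal lay below 0. LAMB3, the beta chain of the laminin that anchors basal keratinocytes, has 1 probe set and read 4860 with the vector and 3625 with GLUT4 (-0.42). The other chains of that laminin were not analysed here.

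The laminin with LAMA5 is the widespread laminin of adult epithelial basement membranes, where LAMA5 joins LAMB1 or LAMB2 and LAMC1. LAMA5 read 620 with the vector and 471 with GLUT4 (-0.40). A further probe set annotated both to LAMA5 and to its antisense gene LAMA5-AS1 read 88.6 and 136, 1.54-fold higher, and is not counted since it cannot be assigned to either. LAMB2 read 126 and 96.8 (-0.38). LAMB1 was nearly level at 3001 and 2962 (-0.02), with -0.14 on its other probe set. LAMC1, the gamma chain of most laminins, had probe sets of opposite direction, 2819 and 2537 (-0.15) and 1022 and 1259 (0.30), and their mean was 0.07.

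LAMA4, a chain of vessel walls and mesenchymal tissues, had the largest laminin difference at -0.52, from 68.3 to 47.6, but its next brightest probe set was at -0.18 and its 3 dim ones lay between -0.22 and 0.01. LAMA2, the chain of muscle basement membranes, was lower on all 4 probe sets, with a difference of -0.26 on the main one (179 to 149) and of -0.32, -0.13 and -0.01 on the others. LAMA1, LAMB4 and LAMC3 stayed below the median signal, at 33.8 or less on both arrays, with differences of -0.05, 0.07 and -0.17.

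The directions of bright probe sets of the same gene were compared, and no share over all genes is given beside the counts. Of 13 of the 35 genes with at least 2 probe sets above the median signal, 9 had these on the same side of 0, and 4, namely ITGB2, ITGB3, ITGB4 and LAMC1, had them on both sides. The differences of the brightest pair had an SD of 0.30 over 25 integrin and laminin genes and 0.29 over all 10523 genes.

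The lists of genes around the receptors had medians between -0.09 and 0.08. As a scale for the counts in these and the marker lists, 1.54% of all genes were more than 1.5-fold lower and 1.84% higher. Of 3 hemidesmosome partners measured, none passed 1.5-fold, with PLEC, the linker to keratin filaments, at -0.01, the tetraspanin CD151 at 0.08 and DST at 0.32. Of 23 focal adhesion adaptors and kinases, 1 was more than 1.5-fold higher, TLN1 at 0.65 (116 to 182), and 0 were lower, with a median of 0.00. TLN1 encodes talin, which binds the beta subunit tail and activates the receptor, and its 3 probe sets had a mean of 0.25. The adaptor TNS3 lay just inside 1.5-fold at -0.58 (1472 to 984), while the kinase PTK2 was at -0.09 and vinculin, VCL, at -0.03. Of 12 integrin regulators at the membrane, 1 was more than 1.5-fold lower. This was PLAUR, the urokinase receptor, at -0.87 (688 to 376), with all 3 of its probe sets past 1.5-fold.

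Of 14 other basement membrane components, 11 lay below 0, beside 52.2% of all genes, and none passed 1.5-fold, with a median of -0.09. The collagen chains COL4A1 and COL4A2 were at -0.14 and -0.30. Of 19 other ligands of integrins, 3 were more than 1.5-fold higher and 1 was lower, beside 1.84% and 1.54% of all genes. The median of these ligands was -0.01. Those higher were CCN2 at 1.63 (2003 to 6180.3), NPNT, the ligand of the receptor with ITGA8, at 1.08 (150.1 to 318) and TGFB2 at 0.90 (124 to 233). EDIL3, a ligand of ITGAV receptors, was lower at -1.70 (41.8 to 12.9), with a mean over both arrays below the median signal. The means over all probe sets were smaller, at 0.59 for the 2 of NPNT, 0.50 for the 5 of TGFB2 and -0.59 for the 3 of EDIL3. Fibronectin, FN1, was nearly level on its main probe set at 15213 and 14861 (-0.03), but 3 of its 7 probe sets were higher, by up to 0.90, and the mean over all was 0.20. Of 4 other laminin receptors, none passed 1.5-fold, with the syndecan SDC4 at 0.28.

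**Figure D4:**
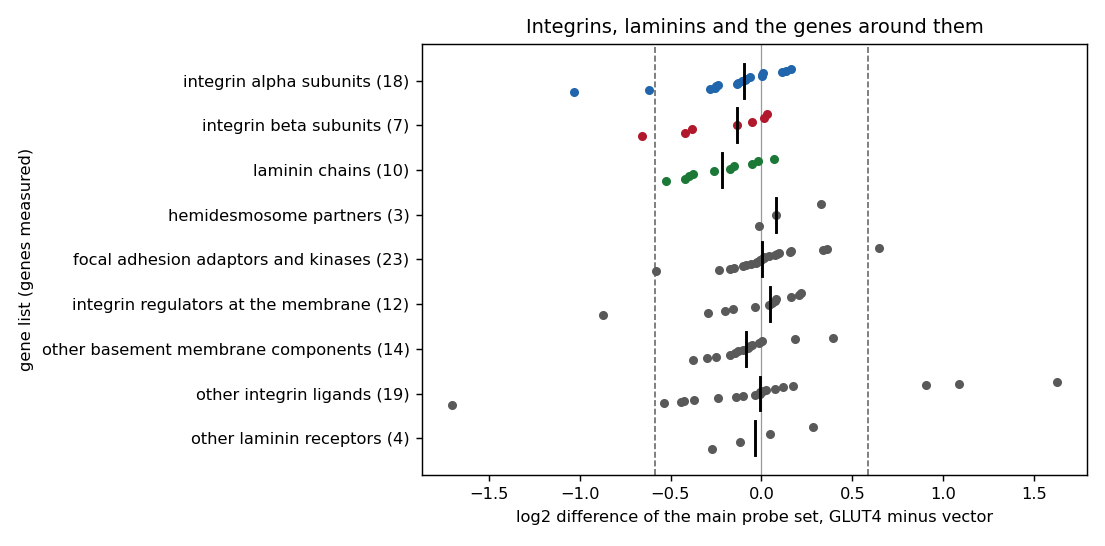
Each point is the log2 difference (GLUT4 minus vector) of a gene's main probe set, grouped by list with the number of genes measured in brackets, and black bars are medians. Dashed lines mark 1.5-fold. The medians of the integrin alpha, integrin beta and laminin genes were -0.10, -0.14 and -0.22, and those of the lists around them lay between -0.09 and 0.08.

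Markers of the labelled origin and of other cell types were also read. All 7 squamous epithelial markers measured had a mean signal above the median, but so had 12939 of all 19775 genes. This count therefore does not identify the cells. KRT5 read 11024 with the vector and 13093 with GLUT4, and PKP1, the dimmest of the 7, read 70.8 and 73.4. KRT14, a basal keratin that is found in the same cells as hemidesmosomes, was higher by 1.02, and the adhesion molecule EPCAM was lower (-0.83). E-cadherin, CDH1, the ligand of the receptor with ITGAE, was within 1.5-fold at -0.54. Of 6 fibroblast markers, 2 were more than 1.5-fold higher, DCN at 1.12 and LUM at 1.05. Their means over all probe sets were 0.89 for the 7 of DCN and 0.69 for the 2 of LUM. The summed intensity of the 6 markers was 834 with the vector and 1459 with GLUT4. Of these 6, 4 lay above the median signal, namely DCN, LUM, COL1A1 (224 to 226, with 1 of its 5 probe sets higher by 1.07) and PDGFRB (43.1 to 49.3), and COL1A2 (31.6 to 35.4) and COL3A1 (15.2 to 17.4) did not. LUM lay above 39.3 only with GLUT4 (38.5 to 79.9). Of 6 endothelial markers, 1 was more than 1.5-fold lower, PECAM1 at -1.55, with a mean of -0.81 over its 5 probe sets. The summed intensity of the 6 markers was 293 with the vector and 202 with GLUT4. Of these 6, 3 lay above the median signal, namely PECAM1, ESAM (61.0 to 56.7) and VWF (41.7 to 47.5), and KDR, CDH5 and TEK did not, at 25.8 or less on both arrays. The part of such cells in the integrin and laminin values was not tested.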

How the data were processed

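The authors hybridised 1 array per cell population and, per the methods, normalized them as log2 values with GeneSpring; MAS5 is also named, without a version, among the submitters' processing tools. The order of these steps is unknown here. What the authors deposited are linear intensities, from 4.15 upwards, already normalized between the arrays (median 39.7 for the vector and 39.1 for GLUT4). The number of arrays limits the precision.

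With a floor of 1, which no value reached, log2 was taken of each intensity. Gene names came from the platform annotation, in which 41097 probe sets name 1 gene, 1801 several and 11777 none, and no gene was named from several. A gene stands by the probe set with the highest mean log2 intensity. The threshold of 1.5-fold is that of the methods. The genes and lists were chosen with earlier results of these data known. By rule, members with a probe set past 1.5-fold, their partners, the 10 of highest signal, and up to 4 genes of each further list past 1.5-fold were named. All other members are given for completeness, and further genes of the lists were chosen after their values were seen.

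The alternatives were: quantile normalization, loess over mean signal (fraction 0.3), 32 added before log2, only genes and probe sets above the median signal, no s_at or x_at probe sets, and the average of a gene's probe sets. The procedure was run on simulated arrays whose noise was below the probe set SD and whose effects lay well past 1.5-fold. This checks the code and not the error of these data. Promoter windows came from RefSeq on GRCh38.p14. Values were computed with pandas 2.3.3, numpy 2.4.6 and statsmodels 0.14.6 under Python 3.11.15 and drawn with matplotlib 3.10.9.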

Additional observations from a re-analysis of the deposited data

How the results depend on the processing

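No integrin or laminin gene or probe set was more than 1.5-fold higher under any of the alternatives run, and the median over the genes stayed between -0.15 and -0.09. ITGA2, whose main probe set and value the limits on signal and suffix left unchanged, was more than 1.5-fold lower in all 6 alternatives. ITGB5 was not when s_at and x_at probe sets were left out (-0.57) or when its probe sets were averaged (-0.52), and ITGA1 was not with the offset of 32 or with averaged probe sets. With averaged probe sets 1 gene in place of 3 was more than 1.5-fold lower, and without s_at and x_at probe sets 3 probe sets in place of 5, among 56 in place of 95. Quantile normalization gave 6 lower probe sets and the offset 4. The share of all genes more than 1.5-fold lower also moved with the setting, from 1.54% in the main one. It was 1.62% with quantile normalization, 0.85% with the offset, 1.59% without s_at and x_at probe sets and 0.94% with averaging. Shares of all probe sets in these settings are not given here, so the changes in probe set counts cannot be set against them. Of 94 recomputed values of 16 named genes, 90 kept their sign. The exceptions were ITGB8 (0.10), LAMC1 (0.07) and ITGAX (-0.02) with averaged probe sets, and ITGAL (0.13) without s_at and x_at probe sets. Many of the 94 values could not have changed sign, so their number is no measure of robustness. An offset on both arrays keeps the sign. Limits on signal or suffix repeat a gene's value while its main probe set remains, and averaging does so for a gene with 1 probe set. No replicate could be left out, since each group had 1 array.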
